A study of Mus musculus with 8 samples.

Results

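Chromatin loops, topologically associating domains (TADs) and CTCF peaks were examined at 9 mouse genes of oxygen sensing, mitochondrial clearance and organelle loss: Hif1a, Egln1, Egln3, Vegfa, Slc2a1, Bnip3, Bnip3l, Dnase2b and Pink1. They were taken by name from the 21883 protein-coding genes of the GRCm38.p6 gene table, and all 9 were found in it. For each gene, the loops with an anchor within 50 kb of the gene body, the loops of at most 1 Mb that span it, the TADs that touch it and the CTCF peaks within 50 kb were collected from the deposited lists. Hi-C, which counts contacts between distant pieces of chromatin, was done on lens epithelium and lens fiber cells of newborn CD-1 mice at postnatal day 0.5, microdissected from 30 lenses per replicate, and on wild-type mouse embryonic stem (ES) cells of the v6.5 line, grown on gelatin with LIF and without feeder cells. Per the paper's methods, this ES line is male and of a mixed strain background other than CD-1, so ES cell and lens lists also differ in strain. The 2 replicates of each cell type were crosslinked with 2.0% formaldehyde and merged by the authors before calling. ChIP-seq for CTCF, the zinc finger protein that sits at many loop anchors, was done on the same lens cell types at the same age, from 200 lenses each, and each lens cell type had 1 peak list. Because each cell type has 1 merged list, replicate error could not be computed and the cell types were not tested against each other, so that the differences below are differences between lists. Intervals are exact 95% Poisson intervals on the observed contacts of a loop and cover counting error only. Gene expression was not measured in these samples, so the dissected cells were not checked against marker genes, and loops that occur in fewer cells cannot be told apart from loops that are weaker in every cell.

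The mature lens has no blood vessels, and its fiber cells destroy their nuclei, mitochondria and endoplasmic reticulum as they mature. When oxygen is low, the HIF transcription factors, of which Hif1a encodes an oxygen-regulated subunit, switch on genes of glucose uptake, blood vessel growth and mitophagy. When oxygen is sufficient, prolyl hydroxylases such as those encoded by Egln1 and Egln3 mark the HIF subunit for destruction. Bnip3, Bnip3l and Pink1 act in mitophagy, the removal of mitochondria by autophagy, and Dnase2b encodes an acid nuclease that degrades the DNA of lens fiber nuclei.

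A CTCF peak of the fiber list overlapped the promoter window of 3 of the 8 genes that have an entry in the RefSeq promoter table (GRCm38.p6), namely Hif1a, Slc2a1 and Pink1, and no peak of the epithelium list overlapped any of the 8. When the fiber list was reduced by q-value to the number of epithelial peaks, only the overlap at Pink1 remained. Bnip3l has no entry in that table. The window ran from 250 bases before the transcription start to 50 bases after it. Over all 17491 genes with such a window, 5.72% overlapped a fiber peak, 1.5% an epithelium peak and 4.32% a fiber peak but no epithelium peak. The 250 bases before the start of the 3 genes are printed because the peak lies on them, 5′ to 3′ along the gene, and capitals mark the bases inside the fiber peak. They cover chr12:73907617-73907866 on the plus strand for Hif1a, chr4:119108495-119108744 on the plus strand for Slc2a1 and chr4:138326297-138326546 on the minus strand for Pink1.
Hif1a: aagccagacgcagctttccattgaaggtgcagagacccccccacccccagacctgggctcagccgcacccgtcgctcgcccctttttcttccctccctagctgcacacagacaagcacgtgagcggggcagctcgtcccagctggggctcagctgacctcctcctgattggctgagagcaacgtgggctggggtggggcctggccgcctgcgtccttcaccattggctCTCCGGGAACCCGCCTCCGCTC
Slc2a1: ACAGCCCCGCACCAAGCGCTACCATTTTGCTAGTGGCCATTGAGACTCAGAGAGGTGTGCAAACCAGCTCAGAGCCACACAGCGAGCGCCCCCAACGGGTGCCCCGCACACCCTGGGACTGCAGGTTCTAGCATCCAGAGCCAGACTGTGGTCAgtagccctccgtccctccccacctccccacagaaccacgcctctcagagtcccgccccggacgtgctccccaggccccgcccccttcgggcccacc
Pink1: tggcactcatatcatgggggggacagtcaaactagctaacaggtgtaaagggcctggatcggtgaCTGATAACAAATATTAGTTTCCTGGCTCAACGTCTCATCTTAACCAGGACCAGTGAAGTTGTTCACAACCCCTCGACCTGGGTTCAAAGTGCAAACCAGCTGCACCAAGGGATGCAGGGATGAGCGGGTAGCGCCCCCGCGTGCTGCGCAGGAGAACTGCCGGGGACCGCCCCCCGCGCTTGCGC
The peak covered 22 of the 250 bases in Hif1a, 154 in Slc2a1 and 185 in Pink1. It ran on into the gene in Hif1a and Pink1 and began upstream of the printed bases in Slc2a1.

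The ACGTG form of the hypoxia response element core was searched for, on either strand, in the same 250 bases of the 8 genes. It occurred in 5 of them, Hif1a, Egln1, Egln3, Slc2a1 and Bnip3, and in 17.6% of the 17491 promoters. Hif1a held 3 matches, at 135, 134 and 70 bases before the start, of which the first and second overlap on opposite strands in the palindrome CACGTG. Bnip3 held the same kind of overlapping pair at 108 and 107 bases, and Slc2a1 had a match at 36 bases. None of the matches in Hif1a and Slc2a1 lay in the capitals, and Pink1, Vegfa and Dnase2b had no match in this window. The letters CCCTC, which were also searched for, occurred in 6 of the 8 genes and in 63.3% of all promoters. In Pink1 they lay inside the fiber peak at 116 bases before the start. The full CTCF motif and other forms of the hypoxia response element core were not searched for. A match describes these letters and does not show a bound site.

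Loops were found close to nearly all of the 9 genes in each cell type. At least 1 loop was anchored within 50 kb of 8 genes in ES cells, 9 in epithelium and 8 in fiber cells. Of all genes, 66.6% in ES cells, 63.2% in epithelium and 61.0% in fiber cells had such a loop, so most genes resembled these 9 in that respect. The anchored loops numbered 13, 18 and 17 (ES cells, epithelium and fiber cells, an order kept below). The median was 1 anchored loop per gene for ES cells and 2 for either lens list, against 1 over all genes in each list. Loops of at most 1 Mb spanned 6, 7 and 6 of the 9 genes, against 41.5%, 34.3% and 33.5% of all genes. There were 11, 15 and 16 of these spanning loops, and 5, 6 and 7 of them were anchored within 50 kb as well. Together the 9 genes had 19, 27 and 26 different loops, out of 8459, 8005 and 7682 in the lists. The median loop of the lists held 56, 51 and 63 observed contacts, so a loop listed in only a single cell type can still have contacts in the others that fell short of the calling thresholds.

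**Figure D1:**
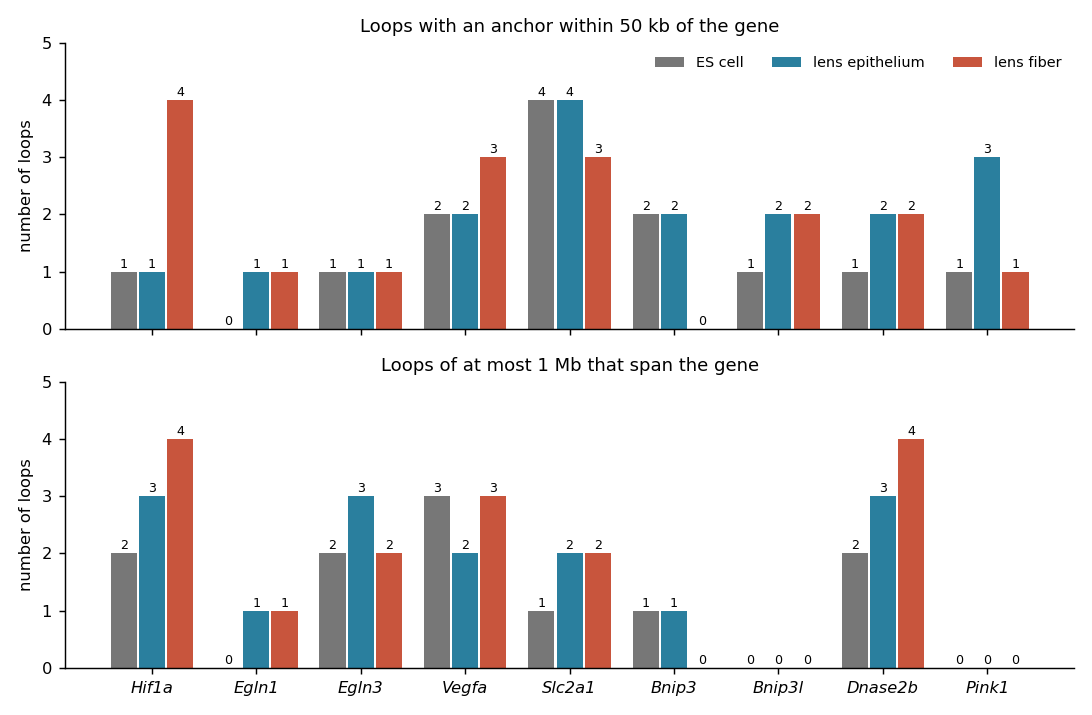
Number of loops per gene in the ES cell, lens epithelium and lens fiber lists (grey, blue and red bars), with loops anchored within 50 kb of the gene in the upper panel and spanning loops of at most 1 Mb in the lower panel. Hif1a had 4 anchored loops in fiber cells against 1 in each other list, while Bnip3 had none in fiber cells and Egln1 none in ES cells.

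Hif1a (Entrez Gene 15251, chr12:73901324-73947554, plus strand) stood out among the 9 genes by its fiber loops. It had 4 anchored loops in fiber cells, against 1 in ES cells and 1 in epithelium. A gain of at least 3 anchored loops from epithelium to fiber occurred in 0.544% of all genes, and 6.33% of genes had 4 or more anchored loops in fiber cells. The paper had already described additional fiber loops at Hif1a from the same data. These shares are therefore a description and no independent evidence that Hif1a is unusual. In some other settings Hif1a fell short of that gain, with 3 fiber loops against 1 in epithelium. These settings were a 25 kb window, a 50 kb window around the transcription start, and no loops of 25 kb anchors. The transcription start at 73907867 lay inside an anchor of 3 of the 4 fiber loops and of no loop in ES cells or epithelium. This is the start of the promoter table, and the gene body of the gene table begins upstream of it, at 73901324, which lay in the same 3 fiber anchors. The epithelial anchor was close by, beginning 2.13 kb past the start, whereas the ES cell anchor was 22.1 kb away, inside the gene.

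The fiber loops at Hif1a differed in size. Ratios of observed to expected contacts can be set side by side only for loops of the same anchor width. The shortest, of 60 kb, joined the promoter to Snapc1, a subunit of the snRNA-activating complex, with 29 contacts observed and 6.92 expected (ratio 4.19, 2.81 to 6.02). Another, of 190 kb, joined the promoter to the gene for protein kinase C eta, Prkch, with 71 observed and 18.3 expected (ratio 3.87, 3.02 to 4.88). A loop of 270 kb linked Prkch to Snapc1 over Hif1a (ratio 2.85, 2.17 to 3.66). Thus Hif1a, Prkch and Snapc1 were joined pairwise in the fiber list, with the same anchor at Prkch and different anchors at Snapc1. None of these 3 loops was in another list, also when midpoints up to 25 kb apart were accepted. The remaining fiber loop, of 125 kb, had 25 kb anchors where the others had 10 kb anchors (ratio 1.89, 1.66 to 2.14). It was shared with the epithelial loop of 120 kb, which had 49 observed and 19.8 expected contacts (ratio 2.47, 1.83 to 3.26). In ES cells the anchored loop was of 230 kb, from Prkch into the body of Hif1a (ratio 2.73, 2.06 to 3.56), and its largest FDR, 0.017, was the highest of the 6 loops anchored at Hif1a.

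Larger loops enclosed Hif1a in all cell types. A loop from Prkch to Syt16 was listed at 310, 315 and 305 kb in ES cells, epithelium and fiber cells, with ratios of 4.76 (3.76 to 5.95), 4.91 (2.91 to 7.76) and 5.45 (3.77 to 7.61). The anchors were of 10 kb in ES cells and 5 kb in the lens, where the intervals overlapped. The epithelial call rested on 18 observed contacts with a largest FDR of 0.041, and it was lost at an FDR below 0.01. A loop of 575 kb from Prkch to Dbpht2 had the same anchors in the 3 lists, with ratios of 3.16, 3.19 and 3.02. A loop of 450 kb ending at Syt16 was in both lens lists only. The enclosing loops were thus listed in several cell types, whereas the 3 loops found in fiber cells alone lay inside them. The TADs differed as well. Epithelium had 2 nested TADs of 410 and 305 kb around the whole gene, ES cells had 1 of 100 kb that began past the start and held 81.2% of the gene, and fiber cells had none touching it.

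No epithelial CTCF peak lay within 50 kb of Hif1a, and the nearest epithelial summit was 101691 bp from the start. The fiber list had 3 peaks there and none of them was shared, but none of the 3 remained when the longer fiber list was reduced by q-value to as many peaks as the epithelium list, which left 0 in either list. The promoter peak (chr12:73907845-73908032) had a fold enrichment of 4.39 and a summit 140 bp past the start. A peak in the gene, 23.65 kb from the start, had a fold of 5.71, and another, downstream of the gene, had 5.63. Of the fiber list, 92.7%, 65.1% and 66.7% of the peaks were stronger than these. The promoter peak lay in the anchors of the 3 fiber loops that held the start, and the downstream peak in the Snapc1 anchor of the 270 kb loop.

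**Figure D2:**
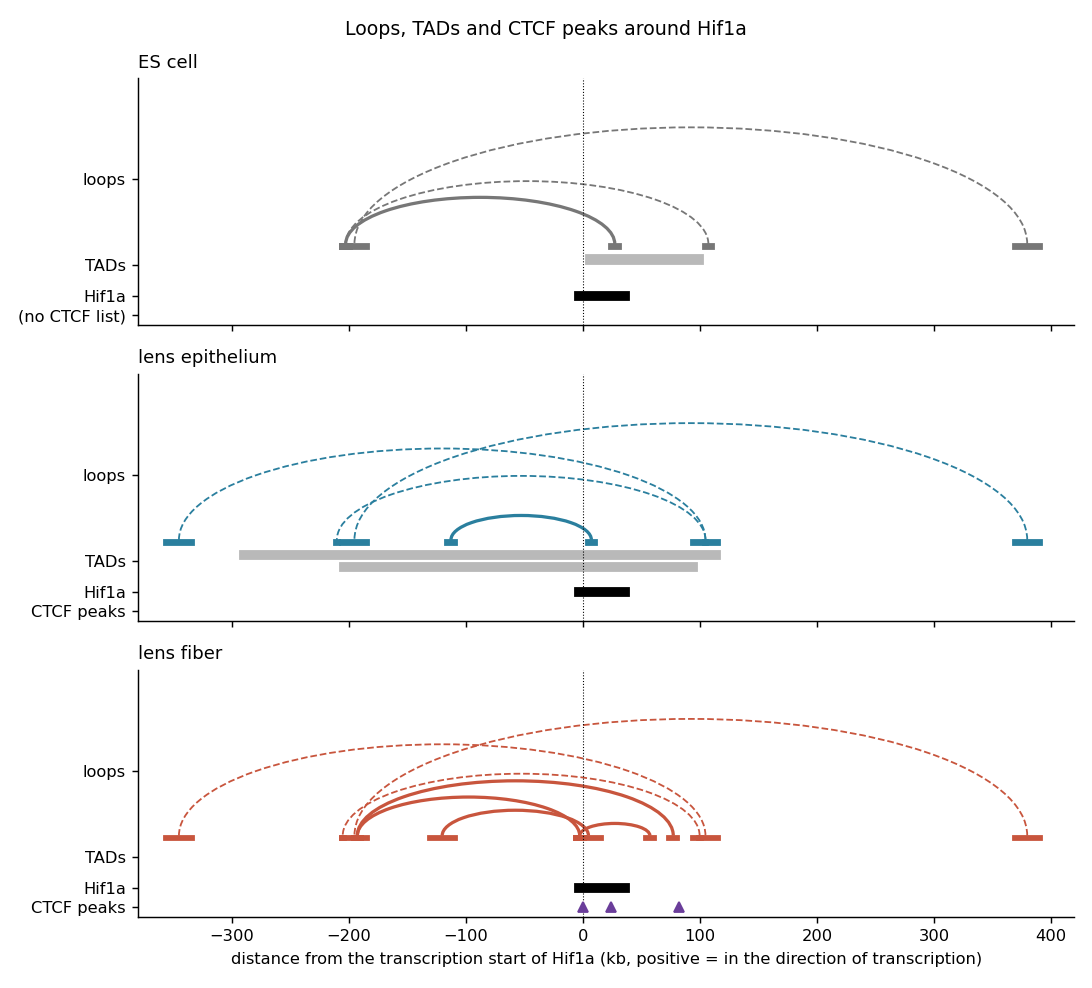
Loops (arcs, solid where anchored within 50 kb of Hif1a and dashed where only spanning), loop anchors (bars under the arcs), TADs (grey bars), the gene (black bar) and CTCF peaks (triangles) against the distance from the Hif1a start in kb for each cell type, with arc height in proportion to loop size. In fiber cells 4 solid arcs are seen against 1 in each other list, and the 3 triangles appear in fiber cells only.

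Egln1 (Entrez Gene 112405, chr8:124908587-124949254, minus strand) encodes the main oxygen sensor that hydroxylates HIF. It had the same loop of 140 kb in both lens lists and no anchored or spanning loop in ES cells, a combination with anchored loops in both lens lists and none in ES cells found in 6.3% of all genes. The loop ran from the neighboring genes Gnpat, Exoc8 and Sprtn, 8.59 kb from Egln1, to Tsnax. It had 33 observed and 12.4 expected contacts in epithelium (ratio 2.66, 1.83 to 3.73) and 49 observed and 16.7 expected in fiber cells (ratio 2.93, 2.17 to 3.88). The lens ratios were within each other's intervals. At an FDR below 0.01 the epithelial call was lost and the loop was in fiber cells alone. In ES cells Egln1 lay whole in a TAD of 150 kb, and no lens TAD touched it.

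CTCF peaks near Egln1 numbered 1 in epithelium and 4 in fiber cells, and 1 in each at equal list size, but not the same peak. A peak 31.0 kb upstream was in both lists, with a fold of 8.48 in epithelium and 5.18 in fiber cells. The other 3 fiber peaks lay downstream with folds between 4.28 and 5.08, and 1 of them sat in the anchor at Gnpat, Exoc8 and Sprtn. By q-value, this anchor peak was the fiber peak left at equal list size, and the fiber call of the shared upstream peak was lost. That anchor held no epithelial peak, so the shared loop had CTCF at both anchors in fiber cells and at the Tsnax anchor alone in epithelium.

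Egln3 (Entrez Gene 112407, chr12:54178981-54203874, minus strand), whose transcript is itself induced by hypoxia in many tissues, kept its promoter in a loop anchor in every list but joined it to different places. In ES cells the loop was of 110 kb with 86 observed and 37.9 expected contacts (ratio 2.27, 1.82 to 2.80). In epithelium it was of 290 kb with 33 observed and 11.1 expected (ratio 2.98, 2.05 to 4.19), and in fiber cells of 275 kb with 182 observed and 96.5 expected (ratio 1.89, 1.62 to 2.18). The lens loops were shared, and neither the ES cell nor the lens far anchors held a protein-coding gene. The fiber call had 25 kb anchors and the epithelial call 10 kb anchors, so these ratios are not on the same scale. The epithelial loop was lost at an FDR below 0.01, and the fiber loop without loops of 25 kb anchors.

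Egln3 was the only gene of the 9 with no CTCF peak within 50 kb in either lens list. The nearest summit was 104899 bp from the start in epithelium and 104786 bp in fiber cells. It lay whole in a TAD in every list, which was 545 kb long in ES cells and 465 kb in both lens cell types, with identical borders in the lens lists. The spanning loops numbered 2, 3 and 2, and a loop of 225 kb was in both lens lists.

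Vegfa (Entrez Gene 22339, chr17:46016993-46032377, minus strand), which encodes the vascular endothelial growth factor, had the highest ratio in both lens lists among the anchored loops with 5 kb anchors, of which epithelium had 3 and fiber cells 2. This loop joined the start of Vegfa to a site 295 to 300 kb downstream and was shared by all lists, always with 5 kb anchors. The observed contacts were 40 in ES cells, 27 in epithelium and 39 in fiber cells, against 10.1, 4.75 and 6.38 expected. The ratios were 3.95 (2.82 to 5.38), 5.69 (3.75 to 8.28) and 6.11 (4.34 to 8.35). The ES cell ratio was the lowest, but the 3 intervals overlapped. The far anchor covered the gene 1600014C23Rik in ES cells and fiber cells and the 5 kb bin next to it in epithelium.

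A loop of 100 kb from Vegfa to Mrps18a, Rsph9 and Mad2l1bp was listed in both lens cell types and not in ES cells, with ratios of 2.07 (1.78 to 2.40) in epithelium and 2.14 (1.88 to 2.43) in fiber cells. Its bins of 25 kb hold several genes, so that the contact cannot be given to any of them. ES cells had a loop of 185 kb (ratio 3.21, 2.42 to 4.17) and fiber cells a loop of 175 kb (ratio 1.90, 1.67 to 2.16) from the start, which were not shared at 10 kb but were at 25 kb. Their anchors were of 5 kb in ES cells and 25 kb in fiber cells, so these ratios are not on the same scale. Every anchored loop of Vegfa thus had the start inside an anchor, with 2 in ES cells, 2 in epithelium and 3 in fiber cells. The loops to downstream sites were counted as spanning too, because the midpoint of the anchor fell just outside the gene.

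CTCF was listed close to the Vegfa start in both lens cell types, although outside the promoter window. The summit was 489 bp upstream in epithelium, with a fold of 4.82, and 514 bp upstream in fiber cells, with a fold of 8.62. Another shared peak lay 9.05 kb upstream with folds of 4.96 and 7.64. A peak 4.58 kb inside the gene (fold 6.51) was in the fiber list alone, and another 46.9 kb upstream (fold 5.87) in the epithelium list alone. Both lens lists thus held 3 peaks. An ES cell TAD of 150 kb covered 52.1% of Vegfa without its start, and no lens TAD touched the gene.

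Slc2a1 (Entrez Gene 20525, chr4:119108745-119137330, plus strand) encodes the glucose transporter GLUT1 and had 4, 4 and 3 anchored loops in ES cells, epithelium and fiber cells. At least 4 were found at 10.7% of all genes in ES cells and 6.65% in epithelium. The place of the start in these loops differed between the lists. In ES cells 2 loops ended at the start, of 35 kb (108 observed, 35.2 expected, ratio 3.07, 2.52 to 3.70) and of 100 kb (100 observed, 23.5 expected, ratio 4.26, 3.46 to 5.18), and a loop of 65 kb joined their far ends (ratio 2.70, 2.08 to 3.44). In epithelium only the 100 kb loop ended there (83 observed, 28.1 expected, ratio 2.96, 2.36 to 3.67), and in fiber cells none did. These ES cell loops had 5 kb anchors and the epithelial loop 10 kb anchors, so their ratios are not on the same scale. At an FDR below 0.01 the 100 kb loop of ES cells was lost, which left 1 loop at the start in ES cells and 1 in epithelium.

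The loop between the upstream sites, of 65 kb in ES cells and 60 kb in the lens, was in all lists. With 10 kb anchors, its ratio was 2.89 in epithelium and 2.40 in fiber cells. A loop of 165 kb enclosed the whole gene in both lens lists and was not in the ES cell list. It ran from upstream to Zfp691, a zinc finger gene, with 31 observed and 6.45 expected contacts in epithelium (ratio 4.81, 3.27 to 6.83) and 47 observed and 8.39 expected in fiber cells (ratio 5.60, 4.12 to 7.45). At an FDR below 0.01 the epithelial call was lost, and of the calls between the upstream sites only the epithelial call was left. Longer loops of 575, 525 and 550 kb, from Ebna1bp2 to the downstream side, were listed alone in each cell type at the 10 kb tolerance but shared at 25 kb.

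The TAD border near Slc2a1 lay at different places. The ES cell TAD ended at 119115000, inside the gene, and held the start with 21.9% of the gene body. The fiber TAD began at the same bin and ended at 119145000, past the whole gene. No TAD of the epithelium list touched Slc2a1. CTCF peaks numbered 2 in epithelium and 4 in fiber cells, and 2 in each at equal list size, of which only the strongest was shared. The strongest was at the Zfp691 anchor of the 165 kb loop in both lists, with folds of 7.44 and 12.6, and only 2.78% of the fiber list was stronger. The promoter peak printed above had a fold of 5.21 with its summit 233 bp upstream.

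**Figure D3:**
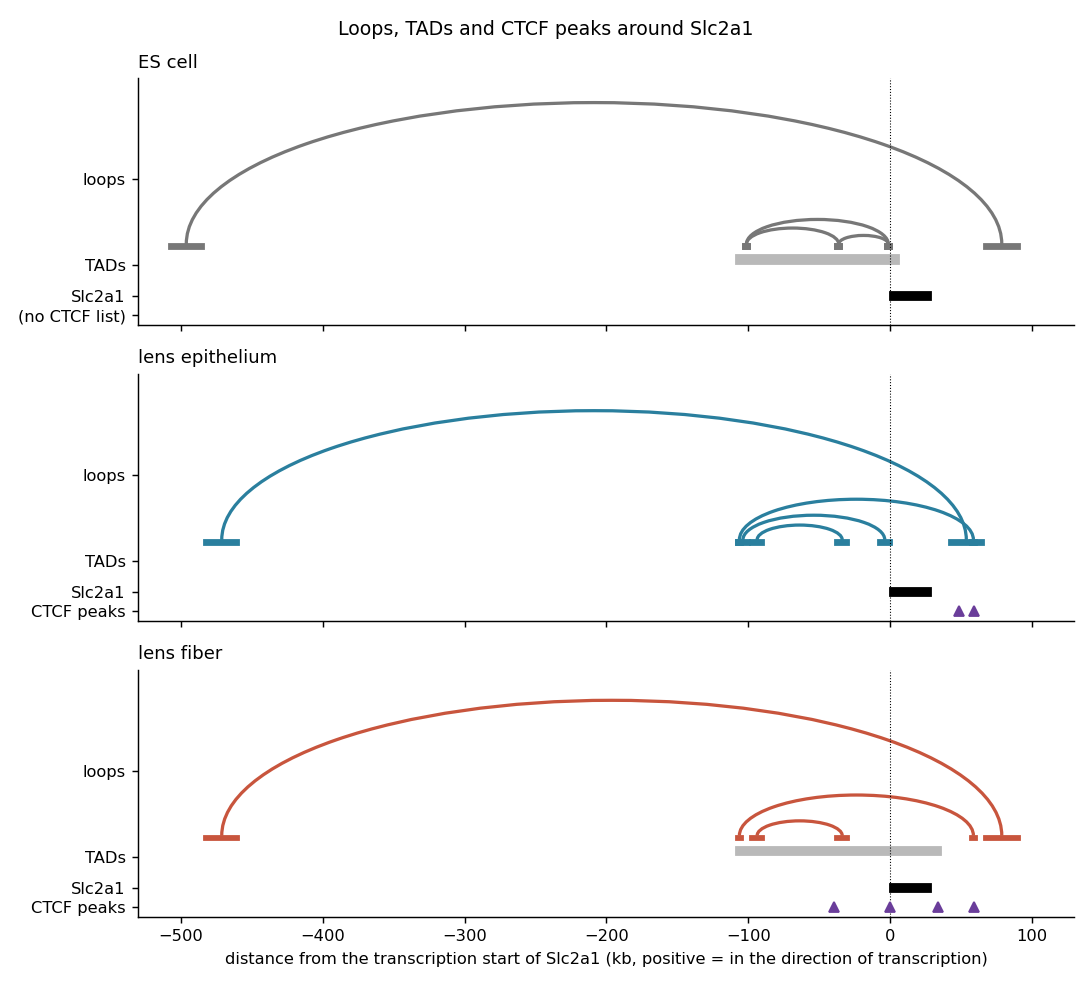
Loops, TADs and CTCF peaks around Slc2a1 against the distance from its start in kb, drawn as for Hif1a. At the start, 2 loops end in ES cells, 1 in epithelium and none in fiber cells, while the 165 kb loop over the gene is in both lens panels.

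Bnip3 (Entrez Gene 12176, chr7:138890836-138909506, minus strand), a mitophagy receptor of the outer mitochondrial membrane and a HIF target, had 2 anchored loops in ES cells, 2 in epithelium and none in fiber cells. Of all genes, 5.24% had anchored loops in ES cells and epithelium and none in fiber cells. The loop that encloses the gene was of 80 kb in ES cells (60 observed, 18.4 expected, ratio 3.27, 2.49 to 4.21) and of 70 kb in epithelium (21 observed, 5.24 expected, ratio 4.01, 2.48 to 6.13). A loop of 35 kb from Ppp2r2d, a phosphatase subunit, into Bnip3 (ratio 2.45, 1.88 to 3.15) was in ES cells alone at the 10 kb tolerance. Its only epithelial partner at 25 kb was the 70 kb loop, which encloses Bnip3 and does not end in it. The other epithelial loop was of 1350 kb and ended at Mapk1ip1 and Ppp2r2d, 40.8 kb from Bnip3. At the 25 kb tolerance it had partners in ES cells and in fiber cells, and within 100 kb of Bnip3 the fiber list held 1 loop. The short loops of Bnip3 had no partner in the fiber list at either tolerance. The TAD of ES cells, of 90 kb, held all of Bnip3, and no lens TAD touched it. A CTCF peak 45.1 kb downstream of Bnip3 was shared, with folds of 5.05 in epithelium and 8.04 in fiber cells, and an upstream peak of fold 4.66 was in epithelium alone.

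Bnip3l (Entrez Gene 12177, chr14:66985238-67008877), which encodes the related receptor NIX, had no loop anchored on the gene itself. A loop to Dpysl2 was in all lists, at 150 kb in ES cells and epithelium and 140 kb in fiber cells, with ratios of 2.79 (2.13 to 3.60), 2.55 (2.14 to 3.0) and 2.92 (2.09 to 3.98). A loop of 130 kb in epithelium and 125 kb in fiber cells, from Ppp2r2a outwards, was in the lens lists only, with ratios of 2.97 (2.22 to 3.89) and 2.15 (1.91 to 2.42). The epithelial call of the Dpysl2 loop and the fiber call of the Ppp2r2a loop had 25 kb anchors. The other calls had 10 kb anchors, so these ratios are not all on the same scale. At an FDR below 0.01 the fiber call of the Dpysl2 loop and the epithelial call of the Ppp2r2a loop were lost. Both loops pointed away from Bnip3l on opposite sides, and no loop spanned the gene in any list. There was no TAD in any list that touched it. CTCF peaks numbered 5 in epithelium and 4 in fiber cells, with 3 shared. Of these, 3 epithelial and 2 fiber peaks sat in the anchor of the Dpysl2 loop. At the other end of Bnip3l a shared peak had folds of 3.83 and 7.64. A fiber peak 0.808 kb below the lower end of the gene had a fold of 7.13 and no epithelial counterpart.

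Pink1 (Entrez Gene 68943, chr4:138313409-138326296, minus strand), a kinase that marks damaged mitochondria, had 1 anchored loop in ES cells, 3 in epithelium and 1 in fiber cells. A loop of 100 to 110 kb upstream was shared by all lists, with 49 observed and 12.2 expected contacts in ES cells (ratio 4.02, 2.97 to 5.31), 48 and 14.5 in epithelium (ratio 3.31, 2.44 to 4.39) and 60 and 18.2 in fiber cells (ratio 3.29, 2.51 to 4.23). The anchors were of 5 kb in ES cells and 10 kb in the lens. The near anchor was in the gene, 6.3 kb from the start, in ES cells and fiber cells and held the start in epithelium. In epithelium, 2 more loops were listed, of 50 kb upstream (ratio 2.27, 1.75 to 2.91) and of 350 kb to Ece1 (ratio 2.64, 2.01 to 3.40), and neither had a partner in another list at 25 kb. Pink1 lay in a TAD in each list, of 120, 90 and 115 kb, which held the whole gene in ES cells, 48.9% of it in epithelium and 87.6% in fiber cells, and the start each time.

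Pink1 had the most CTCF peaks of the 9 genes in fiber cells, with 6, and 4 in epithelium, all of which were shared. At least 6 fiber peaks were found at 6.72% of all genes. A peak 6.58 kb inside the gene was the strongest near any of the 9 genes in epithelium (fold 11.4, rank 220 of 16433) and had a fold of 9.27 in fiber cells. A peak 30.4 kb downstream was the strongest in fiber cells (fold 12.8) and had 7.14 in epithelium. The promoter peak printed above, with a summit 57 bp upstream, had a fold of 8.59 and was in the fiber list alone. Of the 3 promoter peaks it was the strongest.

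Dnase2b (Entrez Gene 56629, chr3:146569733-146617060, minus strand), the lens fiber nuclease, had 1 anchored loop in ES cells and 2 in each lens list. A loop of 350 kb from the end of the gene to Ttll7 was in ES cells (167 observed, 80.7 expected, ratio 2.07, 1.77 to 2.41) and epithelium (91 observed, 36.4 expected, ratio 2.50, 2.01 to 3.07) and not in fiber cells. There, a loop of 200 kb from the same end to Prkacb was listed (55 observed, 22.3 expected, ratio 2.46, 1.86 to 3.21), with no partner in another list at 25 kb. It had 10 kb anchors and the 350 kb loop had 25 kb anchors, so their ratios are not on the same scale. None of these 3 calls had all FDR values below 0.01, so at that limit neither the 350 kb nor the 200 kb loop was left in any list. A loop of 175 kb that ran from Gng5 and Rpf1, 44.7 kb from Dnase2b, away from the gene was in both lens lists, with ratios of 2.24 (1.89 to 2.64) and 2.30 (2.00 to 2.63). The nearest anchor was never at the start of Dnase2b, which lay 40.6 kb from it in ES cells and epithelium and 45.6 kb in fiber cells.

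Loops that spanned Dnase2b numbered 2, 3 and 4. A loop of 450 kb to Prkacb was in both lens lists, with ratios of 3.07 (2.56 to 3.65) and 3.26 (2.80 to 3.77). A TAD of 390 kb in ES cells and of 350 kb in epithelium held the whole gene, and no fiber TAD touched it. The CTCF peak that both lens lists shared lay 5.23 kb from the gene on its downstream side, in the loop anchors there, with folds of 7.79 and 10.1 and summits 1 bp apart. An upstream peak with a fold of 8.53 was in the epithelium list alone, so that Dnase2b had 2 epithelial peaks and 1 fiber peak.

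The anchored loops of the 9 genes were shorter than loops in general. Their median size was 110, 145 and 165 kb in ES cells, epithelium and fiber cells, against 220, 250 and 270 kb over all loops. This is a description, without a test, and the loops in general were not limited to those anchored near a gene. The median ratio of observed to expected contacts was 2.83, 2.78 and 2.46, against 3.06, 3.05 and 2.83. In ES cells 8 of the 13 loops had 5 kb anchors, and in the lens 3 of 18 and 2 of 17 did, the others being of 10 or 25 kb. Without loops of 25 kb anchors, 11, 11 and 10 anchored loops were left, so the higher counts of the lens lists were not seen among the narrower anchors.

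Anchored loops were shared between the lens cell types about as often as loops in general. In the epithelium list 11 of 18 had a partner in fiber cells, which was 11 of 17 fiber loops, against 55.5% and 57.8% of all loops of these lists. A partner in ES cells was found for 7 of the 18 epithelial and 4 of the 17 fiber loops, against 37.9% and 38.1% of all loops. The 4 loops common to all lists were the long loop of Vegfa, the loop between the upstream sites of Slc2a1, the Dpysl2 loop near Bnip3l and the Pink1 loop. Loops listed alone numbered 6 in ES cells, 4 in epithelium and 6 in fiber cells, against 57%, 35.8% and 34.4% of all loops. At the 25 kb tolerance they numbered 3, 2 and 4, against 47.1%, 21.8% and 19.4%. The 4 fiber loops left were 3 of Hif1a and the Prkacb loop of Dnase2b.

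An anchor lay on the gene body for 7, 6 and 5 of the 9 genes in ES cells, epithelium and fiber cells, against 30.1%, 30.1% and 28.9% of all genes. The start was inside a loop anchor in 3, 4 and 3 of the 8 genes with a known start, against 11.8%, 13.3% and 12.4% of all such genes. These were Egln3, Vegfa and Slc2a1 in ES cells, the same with Pink1 in epithelium, and Hif1a, Egln3 and Vegfa in fiber cells. Only Egln3 and Vegfa had it in every list. The loops with the start inside an anchor numbered 5, 6 and 7.

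**Figure D4:**
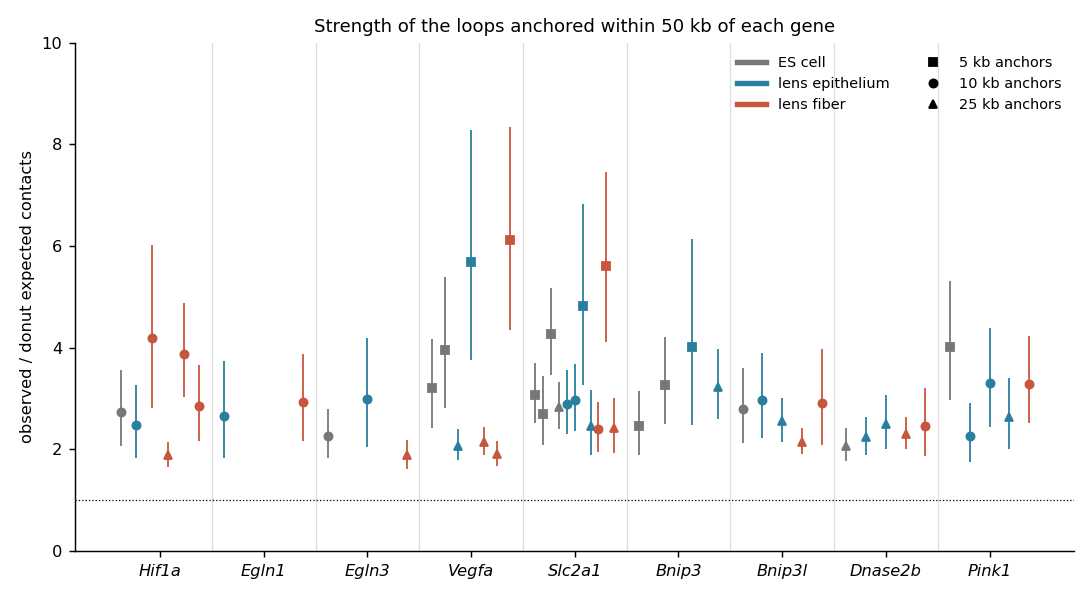
Ratio of observed to donut expected contacts with exact 95% Poisson intervals for each loop anchored within 50 kb of a gene, in the colors of the lists and with marker shape for the anchor width, and a dotted line at a ratio of 1. The highest points are the Vegfa loop at 6.11 in fiber cells and 5.69 in epithelium, and loops with 25 kb anchors mostly lie low.

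TADs touched 8 of the 9 genes in ES cells, 4 in epithelium and 3 in fiber cells. Over all genes 39.6%, 20.8% and 29.0% were touched, so that the ES cell list held more TADs at genes in general, with 3604 TADs against 1796 and 2641. The genes with a TAD in ES cells and in neither lens list were Egln1, Vegfa and Bnip3, a pattern of 17.1% of all genes. Only Egln3 and Pink1 were touched in every list. When the TAD had to hold the whole gene, 5, 3 and 2 genes were left.

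CTCF peaks lay within 50 kb of 7 of the 9 genes in epithelium and 8 in fiber cells, against 67.0% and 79.7% of all genes. They numbered 19 in epithelium and 26 in fiber cells, and 13 of each overlapped a peak of the other list, against 72.8% of all epithelial and 50.1% of all fiber peaks. The fiber list is longer, with 23868 peaks against 16433, and when it was reduced to the same number by q-value, 17 peaks of the 9 genes remained in fiber cells. Of these 17, 11 overlapped an epithelial peak. Under that setting, the promoter peak of Pink1 remained and those of Hif1a and Slc2a1 did not. The counts of fiber peaks were then 0 at Hif1a, 1 at Egln1, 2 at Slc2a1, 3 at Bnip3l and as before at the other 5 genes. The median fold of the peaks near the 9 genes was 5.71 in epithelium and 6.42 in fiber cells, close to 5.78 and 6.44 over the whole lists. Peaks inside a gene body numbered 2 in epithelium, both in Pink1, and 5 in fiber cells, in Hif1a, Vegfa and Pink1.

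CTCF peaks at both anchors of a loop were counted next. Of the 18 epithelial anchored loops, 4 had an epithelial peak at both anchors, 7 at a single anchor and 7 at neither, and of the 17 fiber loops 7, 9 and 1 had fiber peaks in this way. Over all loops, 15.7% in epithelium and 39.1% in fiber cells had CTCF at both anchors, a difference in the same direction. With the peak lists exchanged, the epithelial loops had fiber peaks at both anchors in 11 cases, and the fiber loops had epithelial peaks in 1. The count thus moved with the peak list.

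**Figure D5:**
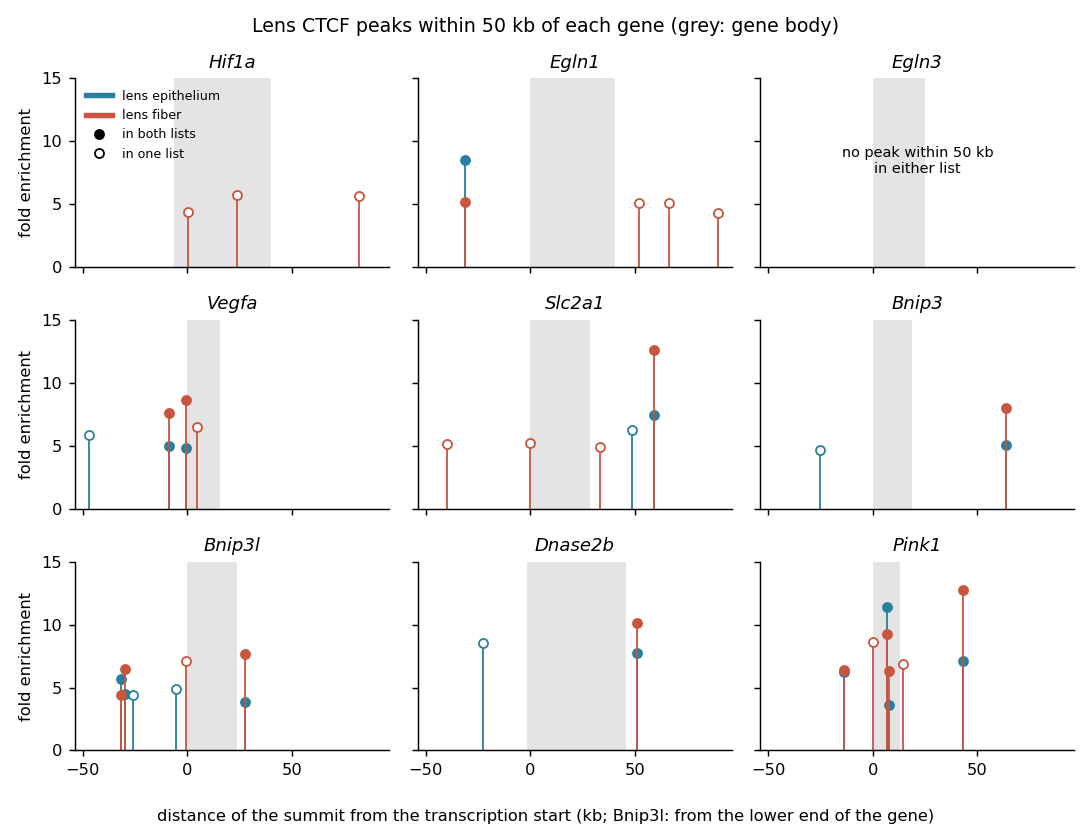
Fold enrichment of each lens CTCF peak within 50 kb of the 9 genes (blue, epithelium, and red, fiber cells) against the distance of its summit from the transcription start in kb, with filled points for peaks in both lists, open points for peaks in a single list and grey for the gene body. Hif1a has open red points only, Egln3 has none, and at Slc2a1 the tallest point, at 12.6 in fiber cells, is at the downstream anchor.

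A list of 48 further genes of the same pathways was examined in the same way, with 24 hypoxia genes, 15 of mitophagy and autophagy and 9 of organelle loss and nucleases. Of these, 37, 37 and 34 had an anchored loop in ES cells, epithelium and fiber cells, against 66.6%, 63.2% and 61.0% of all genes. Loops spanned 21, 13 and 11, against 41.5%, 34.3% and 33.5%. TADs touched 19, 13 and 15, against 39.6%, 20.8% and 29.0%. CTCF lay within 50 kb of 38 in epithelium and 45 in fiber cells, against 67.0% and 79.7%. Of the 40 with a promoter entry, 4 had a fiber peak in the window, 2 an epithelial peak and 2 a fiber peak alone. Over all such genes, the shares were 5.72%, 1.5% and 4.32%. In ES cells Hif3a, which encodes another HIF subunit, had 4 anchored loops. In epithelium 4 genes had 4 each, the HIF partner Arnt2, the HIF-inhibiting hydroxylase Hif1an, the collagen hydroxylase P4ha1 and the lipoxygenase Alox15. In fiber cells Atg7, an enzyme of autophagosome formation, had 6, after 2 in ES cells and 3 in epithelium, and the collagen hydroxylase P4ha2 had 5. The loops of Hif1a in fiber cells were therefore fewer than those of Atg7.

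The likeness of 2 genes was taken as the sum of the absolute differences over 5 counts, the anchored loops in 3 lists and the CTCF peaks in 2, each gene being set against 56 others. Slc2a1 was nearest to Hif1an, Bnip3 to Adm, Egln3 to Plaat3 and Dnase2b to Bhlhe40, each at a distance of 2, and Pink1 to Aldoa and Hk2 at 2. Vegfa was nearest to Bhlhe40 at 3. Egln1 had 5 equally near genes at 2, namely Atg5, Pfkfb3, Tdrd7, Ulk1 and Vhl. Bnip3l had 3 at a distance of 3, namely Aldoa, Cdk1 and Hk2. Hif1a had no gene nearer than 4. Nothing about shared function or control follows from these distances.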

How the data were processed

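Loops, TADs and CTCF peaks of 9 genes were read from the lists the authors deposited. Per the labels and the paper's methods, the authors aligned reads to mm10 with BWA, built Hi-C maps with Juicer from merged replicates, and called loops with HiCCUPS and TADs with Arrowhead (juicer_tools 2.13.06, per the file headers). In the deposited loop lists, observed contacts are counts, expected contacts are a score that HiCCUPS computed from the surroundings, and the FDR is a q-value. In the deposited peak lists, MACS2 gave a fold enrichment (the signal column), the −log10 of its p-value and of its q-value, and a score. Other columns were not used.

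Genes, starts and promoter sequences are from RefSeq (GRCm38.p6, the same assembly as mm10). Counts, ratios of observed to donut expected contacts and exact 95% Poisson intervals were computed in Python 3.11.15 (scipy 1.17.1, pandas 2.3.3, numpy 2.4.6). Figures used matplotlib 3.10.9. Loop size is the distance between anchor midpoints, and loops were shared when both midpoints lay within 10 kb. Peaks were shared when they overlapped by 1 bp. A spanning loop had its midpoints outside the gene. The interval rules were tested on 2000 simulated loops, and 63 of 63 checks gave the known answer.

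Genes outside the 9 are named only where they overlap a far anchor, lead the pathway list or are nearest in likeness. Names of genes at near anchors or at ends of spanning loops were chosen with their values in view. The 9 genes and the pathway list were chosen with earlier results of these data known. Total depth was not read from the lists, so precision is given per loop. Other windows, size limits, tolerances, FDR and q-value limits, anchor widths, TAD rules and peak lists were tried, and 3 alternatives on promoter peaks were added after seeing the data. A result that needs a withheld item is not reported here.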

Additional observations from a re-analysis of the deposited data

How the results depend on the processing

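Of 106 alternative values for counts over the 9 genes, 80 were within 1.5 times the reported count. Without loops of 25 kb anchors, anchored loops fell to 11 in epithelium and 10 in fiber cells, and spanning loops to 5, 8 and 8 in ES cells, epithelium and fiber cells. Anchored fiber loops were 10 within 25 kb and 11 within 50 kb of the start, where Bnip3l has no start and was left out. With a size limit of 500 kb, spanning ES cell loops were 7. When both anchors had to overlap, 4 epithelial and 2 fiber loops had a partner in ES cells, and 3 and 2 ES cell loops had a partner in epithelium and fiber cells. In ES cells 5 TADs held a whole gene, in 5 genes. TADs of at least 200 kb numbered 2, in 2 genes, in ES cells and 1, in 1 gene, in fiber cells. CTCF peaks within 25 kb were 10 in epithelium and 16 in fiber cells, and within 100 kb 42 in fiber cells. With fiber peaks kept by q-value only up to the epithelial number, 17 fiber peaks and 1 fiber promoter peak were left. With the peak lists exchanged, 11 epithelial and 1 fiber loop had CTCF at both anchors. Counting summits within 500 bp of the start gave 1 epithelial promoter, that of Vegfa. Of the 339 values for single genes, 256 kept within that factor. Hif1a had 4 fiber loops against 1 in epithelium and none in ES cells at an FDR below 0.01. By distance to the anchor midpoint its fiber and epithelial counts were 4 and 1, and within 100 kb they were 7 and 3. They were 3 and 1 within 25 kb, within 50 kb of the start, and without loops of 25 kb anchors. The causes of these shifts were not tested.

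No paired analysis was possible because the numbered Hi-C replicates of each cell type were merged before the lists were made. Leaving out a replicate was not possible either. Contacts per loop, down to 21 among the anchored loops, limit the precision of the ratios.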
